A study of Rattus norvegicus with 6 samples.

Results

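The glucocorticoid receptor gene Nr3c1 and 8 genes known as its targets, chaperones or steroid-handling partners were followed in rat marrow mesenchymal stem cells after 7 days with or without a treatment named CYSP. The 9 genes, Nr3c1, Fkbp5, Tsc22d3, Per1, Zbtb16, Hsd11b1, Sgk1, Klf9 and Dusp1, were taken by symbol from a deposited table of 23091 genes, and each symbol stood on a single gene identifier. All 9 passed the filter on low counts that left 12623 genes for testing. With CYSP, Nr3c1, Fkbp5, Hsd11b1 and Per1 were between 3.36 and 4.55 times as high in CPM, counts scaled to the library total after TMM correction of that total. Zbtb16 appeared from near 0, Sgk1 and Dusp1 rose less, Klf9 fell, and Tsc22d3 did not pass the test.

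The glucocorticoid receptor is a nuclear receptor that waits in the cytoplasm in a complex with heat-shock chaperones and immunophilins, moves to the nucleus when cortisol or corticosterone binds it, and then raises or lowers the transcription of many genes. Fkbp5, Tsc22d3, Per1, Zbtb16, Klf9, Sgk1 and Dusp1 are textbook genes that glucocorticoids induce in many tissues, and Hsd11b1 encodes the enzyme that regenerates active hormone from its inert keto form inside cells. In marrow stromal cells, synthetic glucocorticoids such as dexamethasone are classic additives of media that drive bone or fat cell differentiation. Several of the same genes also answer other signals, among them cyclic AMP acting through the factor CREB, and growth factors or stress.

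The 3 samples named CK were wild-type rat marrow mesenchymal stem cells given the solvent DMSO in neural differentiation medium for 7 days. The 3 samples named CYSP were wild-type cells of the same kind treated with CYSP over the same number of days, a name that the labels do not spell out, and the labels name no glucocorticoid in either group. The series asks how gene expression changes while such cells take on a neuron-like state. Nothing in the labels says whether the 3 samples of a group came from separate animals or cultures, so p-values measure only how far these samples differ, and that spread may be technical.

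The 6 libraries held 15060933 to 17244700 counts each. A gene with a count of 0 may have had up to 3, or 0.169 to 0.205 CPM depending on the library. Samples of 1 group correlated across genes at 0.991 to 0.992 and samples of different groups at 0.813 to 0.816. As a check of the labelled cell type, all 9 marrow stromal markers had counts, and 8 of them reached 50 counts in 3 samples. The summed level of the 9 was 4540 to 4573 CPM in CK and 3954 to 4012 CPM in CYSP. Of them, 6 were higher, 2 lower and 1 not passed, beside 38.2% higher and 37.8% lower among all tested genes. Macrophage and leukocyte markers summed to 837 to 955 CPM in CK and 393 to 395 CPM in CYSP, with Cd3e at 0. Of the 6 tested markers, 5 were lower and none higher, beside the same 37.8% and 38.2% of all tested genes. Adipocyte markers summed to 0.169 to 0.664 CPM in CK and 506 to 532 CPM in CYSP, nearly all of it Adipoq, while Cidec was at 0, Plin1 had 8 counts in CK and 0 in CYSP, and Lep had 1 count in each group. Neuronal markers summed to 12.4 to 13.8 and 86.5 to 90.9 CPM with Rbfox3 at 0, astrocyte markers to 0.339 to 0.691 and 14.8 to 15.6 CPM with Aqp4 at 0, and endothelial markers to 0.113 to 0.502 and 1.08 to 1.98 CPM with Emcn at 0. These marker sums differed between the same groups as the genes described below, and their part in those results was not tested. In bulk RNA, a change in the number of cells of a type and a change in RNA per cell cannot be told apart.

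Promoter sequences are shown because the classic receptor element is a DNA palindrome that can be read directly. RefSeq windows on the rat build GRCr8, running from 250 bases before to 50 bases after an annotated start, were given for 7 of the 9 genes, 12 windows in all, and none were given for Zbtb16 and Hsd11b1. On both strands, the glucocorticoid response element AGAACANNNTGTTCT with at most 2 mismatches at its 12 fixed letters was found in 0 of the 12 windows, against 1.87% of all 33469 windows of the same length, and its exact form in 0.0149% of all windows. A single arm of that palindrome, AGAACA, was also in 0 of the 12 windows, against 20.7% of all windows. The cyclic AMP response element TGACGTCA was in the Dusp1 window and in 1.83% of all windows, its core TGACG was in the windows of Dusp1, Klf9 and Tsc22d3 (the third of 3 windows) and in 21.2% of all windows, and the E-box CACGTG, the element of circadian clock factors, was in the Dusp1 window and in 6.42% of all windows. A match is a run of letters, and the lack of a match says only that these letters are not in the window. The first 3 sequences below hold matches, in capitals, and the last 2 belong to Fkbp5 and Per1, which rose and hold none.
Dusp1, chr10:17184603-17184902, plus strand: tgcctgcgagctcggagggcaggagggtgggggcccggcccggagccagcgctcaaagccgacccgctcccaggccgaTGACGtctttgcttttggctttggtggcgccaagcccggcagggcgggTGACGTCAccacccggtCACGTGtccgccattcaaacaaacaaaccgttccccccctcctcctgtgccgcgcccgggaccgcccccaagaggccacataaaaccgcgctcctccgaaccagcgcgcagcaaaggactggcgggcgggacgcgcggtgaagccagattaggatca
Klf9, chr1:230126396-230126695, plus strand: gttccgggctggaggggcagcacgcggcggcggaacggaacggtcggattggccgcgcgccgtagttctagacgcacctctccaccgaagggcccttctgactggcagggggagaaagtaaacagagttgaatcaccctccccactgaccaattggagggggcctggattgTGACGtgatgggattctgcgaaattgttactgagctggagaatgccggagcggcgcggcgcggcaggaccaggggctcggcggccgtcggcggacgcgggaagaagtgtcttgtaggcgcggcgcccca
Tsc22d3, chrX:109009985-109010284, minus strand: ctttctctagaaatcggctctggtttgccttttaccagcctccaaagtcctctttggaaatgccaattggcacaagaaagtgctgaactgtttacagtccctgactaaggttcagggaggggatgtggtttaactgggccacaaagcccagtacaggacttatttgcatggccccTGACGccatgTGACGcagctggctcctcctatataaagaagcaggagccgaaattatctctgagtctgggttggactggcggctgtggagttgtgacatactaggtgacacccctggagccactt
Fkbp5, chr20:6543506-6543805, minus strand: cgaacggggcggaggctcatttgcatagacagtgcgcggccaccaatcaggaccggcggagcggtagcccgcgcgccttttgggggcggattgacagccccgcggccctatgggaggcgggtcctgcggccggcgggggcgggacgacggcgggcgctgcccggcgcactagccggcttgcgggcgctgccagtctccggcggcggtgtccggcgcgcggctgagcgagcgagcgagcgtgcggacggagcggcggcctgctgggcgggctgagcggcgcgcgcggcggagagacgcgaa
Per1, chr10:54304126-54304425, plus strand: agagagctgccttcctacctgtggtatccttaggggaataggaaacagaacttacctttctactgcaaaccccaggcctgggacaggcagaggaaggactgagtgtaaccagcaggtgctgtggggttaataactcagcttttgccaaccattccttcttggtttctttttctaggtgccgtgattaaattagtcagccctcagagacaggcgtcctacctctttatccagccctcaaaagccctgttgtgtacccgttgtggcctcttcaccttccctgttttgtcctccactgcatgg
In Dusp1 the full TGACGTCA began 124 bases before the start site, 2 of the 3 TGACG matches lay within it on opposite strands, and the E-box began 107 bases before the start. The Klf9 core began 79 bases before its start, and the 2 cores of Tsc22d3 began 75 and 65 bases before that window's start. G and C made up 77% of the Fkbp5 window and 50.3% of the Per1 window.

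In edgeR's quasi-likelihood test, with p-values adjusted by Benjamini-Hochberg over all tested genes, 7 of the 9 genes passed as higher in CYSP and 1 as lower, beside 38.2% of all tested genes higher and 37.8% lower (76.1% in either direction). The groups did not overlap in CPM for those same 8 genes, and neither did they for 77% of all tested genes. A change of at least 2-fold upward that passed the test was seen in Nr3c1, Fkbp5, Per1, Zbtb16 and Hsd11b1, beside 15.2% of all tested genes, and none of the 9 fell by that much, beside 12.7%. The median log2 fold change was 1.75 for the 9 genes and 0.00 for all tested genes. The 9 symbols were chosen by name with earlier results of these samples known, among them this contrast between CYSP and CK, and where a symbol had several identifiers the one with the largest summed count was to be taken. Nothing about the group as a whole is therefore read from these counts.

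**Figure D1:**
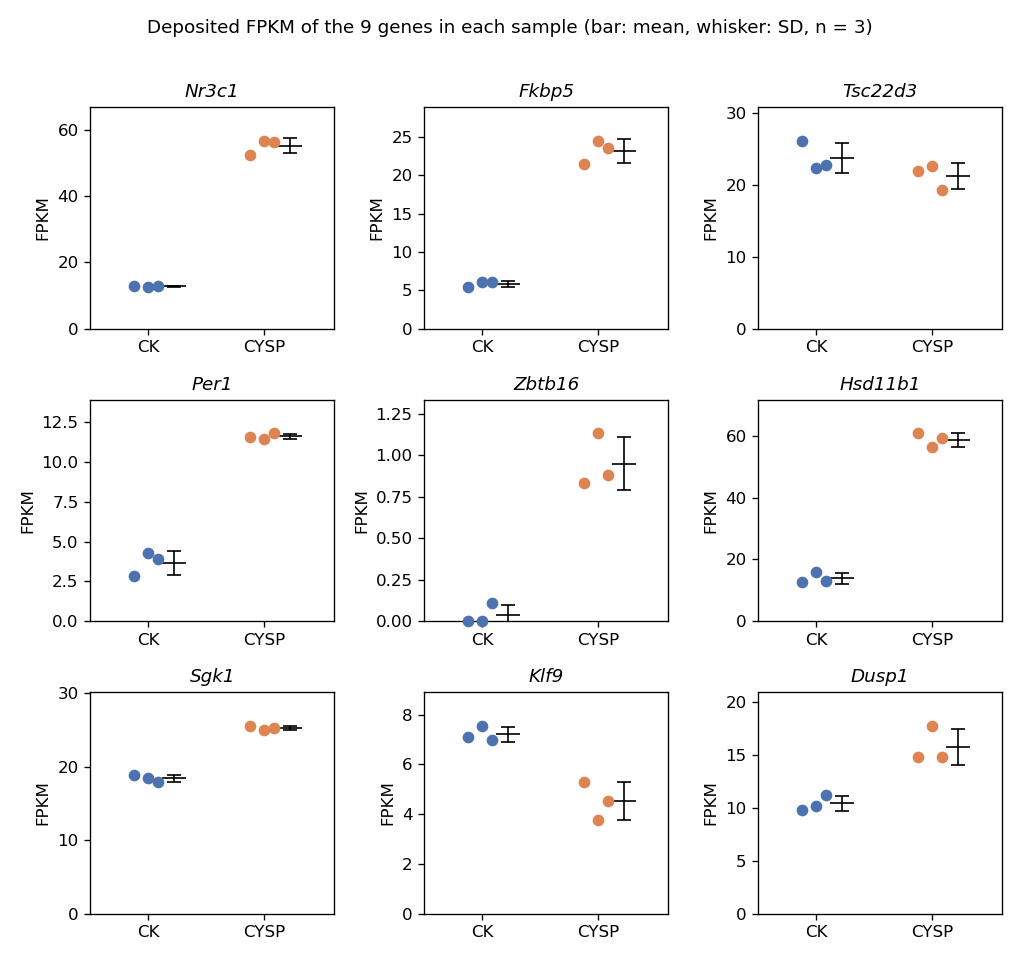
Deposited FPKM (fragments scaled to transcript length and library total) of the 9 genes on a linear axis from 0, with 1 point per sample, 3 samples per group, and the mean with its SD beside the points. The CYSP points lie above all CK points for every gene except Klf9, where they lie below, and Tsc22d3, where the groups overlap.

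Nr3c1 (ENSRNOG00000014096) encodes the receptor itself. Its level per transcript length was 12.95, 12.6 and 12.9 FPKM in CK 1, 2 and 3 and 52.5, 56.6 and 56.3 FPKM in CYSP 1, 2 and 3. The CK samples were almost equal and every CYSP sample was far above them. In CPM the mean went from 79.1 ± 0.863 to 360 ± 13.2 (SD, n = 3 per group), 4.55 times as high, with a log2 fold change of 2.19 (SE 0.0377, adjusted p = 9.87e-62, edgeR's quasi-likelihood test). Among the tested genes, 64.6% had a lower mean FPKM than Nr3c1 in CK and 91.6% in CYSP, and 6.24% of them rose by more than it did. In the authors' deposited table its log2 fold change is 2.10. That table's adjusted p-value is 0.00135 or smaller for 8 of the 9 genes and 0.223 for Tsc22d3.

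Related steroid receptors were sparse. Nr3c2, the mineralocorticoid receptor, which also binds glucocorticoids, had 46, 29 and 28 counts in CK and 67, 39 and 65 in CYSP, so raw counts of the groups overlapped. Scaled to 2.04 ± 0.489 and 3.71 ± 0.952 CPM (SD, n = 3 per group), where they did not overlap, it rose with a log2 fold change of 0.86 (adjusted p = 0.00169, edgeR). Pgr, the progesterone receptor, fell from 66 counts over the 3 CK samples to 4 over the 3 CYSP samples. Esr1 had 1 count in CK and 0 in CYSP, and Esr2 had none. Of the 5 receptors listed, 2 could be tested, 1 higher and 1 lower. Pgr passed the filter on low counts only through CK, so its place as the lower gene supports nothing further. Per length, the ratio of Nr3c1 to Nr3c2 went from 36.8 ± 7.62 to 94.3 ± 30.8 in FPKM (SD, n = 3 per group), described here without a test because it was picked after the values were seen.

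Fkbp5 (ENSRNOG00000022523) encodes an immunophilin that joins the receptor complex and lowers its affinity for hormone. Its level was 5.38, 6.07 and 6.11 FPKM in CK and 21.4, 24.4 and 23.5 FPKM in CYSP. The lowest CYSP sample thus lay well above the highest CK sample. In CPM it rose from 21.7 ± 1.5 to 90.8 ± 5.60 (SD, n = 3 per group), 4.18 times as high, with a log2 fold change of 2.07 (SE 0.0635, adjusted p = 2.41e-44, edgeR), and 6.77% of tested genes rose more. The ratio of Fkbp5 to Nr3c1 in FPKM was 0.457 ± 0.0359 in CK and 0.419 ± 0.0119 in CYSP, and the values of the 2 groups overlapped.

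The other receptor chaperones moved far less. Of 11 listed, 10 could be tested (St13 had 0 counts), 6 were higher, 2 lower and 2 did not pass, with none changed by 2-fold and a median log2 fold change of 0.17. The share that passed is near the 76.1% of all tested genes. Fkbp4, the immunophilin that replaces Fkbp5 in the hormone-bound complex, went from 60.7 ± 0.452 to 75.9 ± 3.83 CPM (log2 fold change 0.32), so the ratio of Fkbp5 to Fkbp4 in FPKM was 0.263 ± 0.0197 in CK and 0.860 ± 0.103 in CYSP (SD, n = 3 per group), with no overlap and no test, as the ratio was picked after the values were seen. Among the heat-shock proteins that hold the receptor, Hsp90ab1 rose by 0.51, Stip1 by 0.39 and Hspa8 by 0.14 on the log2 scale, while Hsp90aa1 fell by 0.15. The cochaperones Ppid and Bag1 rose by 0.48 and 0.20, and Ptges3, which stabilises the hormone-ready complex, fell by 0.44. Dnajb1 had a log2 fold change of -0.15 (adjusted p = 0.0657, edgeR) and passed as lower with library-size or upper-quartile scaling and without CK 1 (adjusted p = 0.0225) or CYSP 1 (adjusted p = 0.0229), and the phosphatase Ppp5c had 0.04 (adjusted p = 0.567). Dnajb1 also passed as lower in the limma-trend fits on FPKM (adjusted p = 0.0174 to 0.0337). Bag1 did not pass in the limma-trend fit without a filter (adjusted p = 0.0598). Hsp90aa1, Hsp90ab1, Hspa8, Ptges3 and Ppid stand on several identifiers, of which the one with most counts was used, so reads may be split between copies. With an assumed biological coefficient of variation of 0.2, the 8 that had passed no longer did, the smallest adjusted p among them being 0.0647 for Hsp90ab1 (edgeR likelihood ratio test).

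All 13 listed coregulators passed the test, 3 higher and 10 lower, with a median log2 fold change of -0.39, beside 38.2% higher and 37.8% lower among all tested genes. Ncoa3, a coactivator, rose from 39.8 ± 2.56 to 55.3 ± 3.10 CPM, and the histone deacetylase Hdac3 from 33.9 ± 0.617 to 46.9 ± 2.65 CPM. Nrip1, a ligand-dependent corepressor, fell from 37.6 ± 3.39 to 16.8 ± 1.99 CPM. Tgfb1i1 (Hic-5), a focal adhesion protein that also acts as a steroid receptor coactivator, fell from 185 ± 3.71 to 4.29 ± 0.518 CPM, a log2 fold change of -5.43 (adjusted p = 6.70e-70, edgeR). Crebbp, Carm1, Ncoa2, Med1, Ncor1, Smarca4 and Ep300 were among the other lower genes, and Ep300, which stands on 2 identifiers between which reads may be split, no longer passed without CK 2 (adjusted p = 0.0538). Ncoa1, the other higher gene, did not pass in the limma-trend fits on FPKM (adjusted p = 0.0632 to 0.0691). With an assumed coefficient of variation of 0.2, 6 were still lower and the 3 higher genes no longer passed.

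Hsd11b1 (ENSRNOG00000005861) encodes the reductase that remakes active corticosterone. Its level was 12.7, 15.8 and 12.9 FPKM in CK and 60.7, 56.2 and 59.1 FPKM in CYSP. Each CYSP sample was above 56 FPKM while no CK sample reached 16. Its CPM rose from 25.0 ± 2.57 to 92.4 ± 3.78 (SD, n = 3 per group), 3.70 times as high, with a log2 fold change of 1.89 (SE 0.0619, adjusted p = 1.85e-42, edgeR), and 7.49% of tested genes rose more. With Nr3c1 it was the most abundant of the 9 per length in CYSP, at 58.7 ± 2.30 against 55.1 ± 2.27 FPKM, values that overlapped between the pair. Hsd11b2, the enzyme of the opposite direction, had 7 counts over the CK samples and 6 over the CYSP samples, near the limit of detection.

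Of the other steroid-handling genes, 10 were listed, 9 found and 5 tested, and 4 were higher and 1 lower, beside 38.2% and 37.8% of all tested genes. H6pd, which feeds the Hsd11b1 reductase with NADPH, rose from 43.4 ± 1.68 to 65.8 ± 1.22 CPM, and the FPKM ratio of Hsd11b1 to H6pd was 1.44 ± 0.210 in CK and 4.22 ± 0.251 in CYSP, picked after the values were seen and not tested. Abcb1b, a pump that exports steroids and many drugs, rose from 37.1 ± 6.28 to 145 ± 2.89 CPM and stands on 2 identifiers. Srd5a1, a steroid reductase that inactivates glucocorticoids, rose from 2.49 ± 0.567 to 12.2 ± 1.16 CPM, and Star, the mitochondrial cholesterol carrier, from 1.89 ± 0.589 to 6.44 ± 0.690 CPM. Cyp11b1, the last enzyme of corticosterone synthesis, fell from 1.25 ± 0.196 to 0.395 ± 0.127 CPM. It passed the filter on low counts only through CK, so its place as the lower gene supports nothing further. The earlier enzymes Cyp11a1 and Cyp21a1 had 4 and 0 counts in CK and 1 and 2 in CYSP, and Serpina6, the plasma carrier of corticosteroids, had none.

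**Figure D2:**
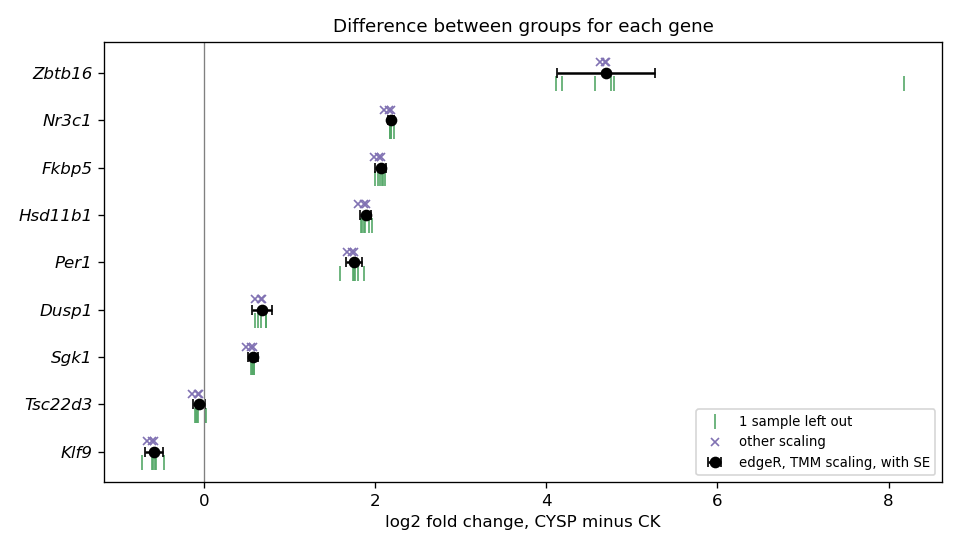
Log2 fold change of each of the 9 genes, CYSP minus CK, with SE from edgeR (black), under 3 other scalings (purple crosses) and with 1 sample left out at a time (green ticks). Zbtb16 moves to 8.18 without CK 3, where CK has 0 counts and the value depends on the model's prior count, Tsc22d3 straddles 0, and the other 7 genes stay on their side of 0.

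Per1 (ENSRNOG00000007387), a repressor of the circadian clock and an early target of the receptor, stood at 2.83, 4.27 and 3.90 FPKM in CK and at 11.6, 11.5 and 11.8 FPKM in CYSP. The CYSP samples were close together, whereas CK 1 was the lowest of a wider CK group. In CPM it rose from 14.2 ± 2.90 to 47.8 ± 0.760 (SD, n = 3 per group), with a log2 fold change of 1.75 (SE 0.0889, adjusted p = 9.00e-24, edgeR), and 8.14% of tested genes rose more. Its paralogs went the other way, Per2 from 23.7 ± 0.787 to 12.1 ± 0.504 CPM and Per3 from 25.9 ± 2.49 to 4.23 ± 0.774 CPM. The FPKM ratio of Per1 to Per2 was thus 0.869 ± 0.2 in CK and 5.72 ± 0.315 in CYSP, and that of Per1 to Per3 was 0.759 ± 0.217 and 15.8 ± 2.39, both picked after the values were seen and not tested.

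Of 17 other clock genes, all were tested, 5 were higher, 9 lower and 3 did not pass, and the median log2 fold change was -0.38. The share that passed is near the 76.1% of all tested genes. The clock activators Npas2 and Arntl (Bmal1) rose by 2.03 and 0.61 on the log2 scale, and their partner Clock fell by 0.48. Nfil3, a repressor of D-box promoters, rose from 19.2 ± 2.35 to 77.3 ± 1.00 CPM, and Rora, an activator of Arntl, rose by 0.71. The D-box activators Dbp and Tef fell by 0.65 and 0.93, and Hlf, of the same family, had 0 counts in CK and 79 in CYSP, at least 28.8-fold higher against a floor of 3 counts over the group. Hlf passed the filter on low counts only through CYSP, so its place among the higher genes supports nothing further. The repressors Nr1d1, Nr1d2, Bhlhe40 and Bhlhe41 fell by 1.07, 1.3, 0.22 and 1.78. Cry1 and Cry2 had log2 fold changes of 0.02 and -0.01 (adjusted p = 0.891 and 0.899, edgeR), and Ciart had -0.38 (adjusted p = 0.073) and passed as lower without CYSP 1 (adjusted p = 0.0237) or with library-size scaling (adjusted p = 0.0285). In the limma-trend fits of genes with a mean of at least 0.5 FPKM, Ciart also passed as lower (adjusted p = 0.0262 and 0.0319). Apart from Npas2, Nfil3, Per3 and Bhlhe41, these clock genes were named after their values were seen.

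**Figure D3:**
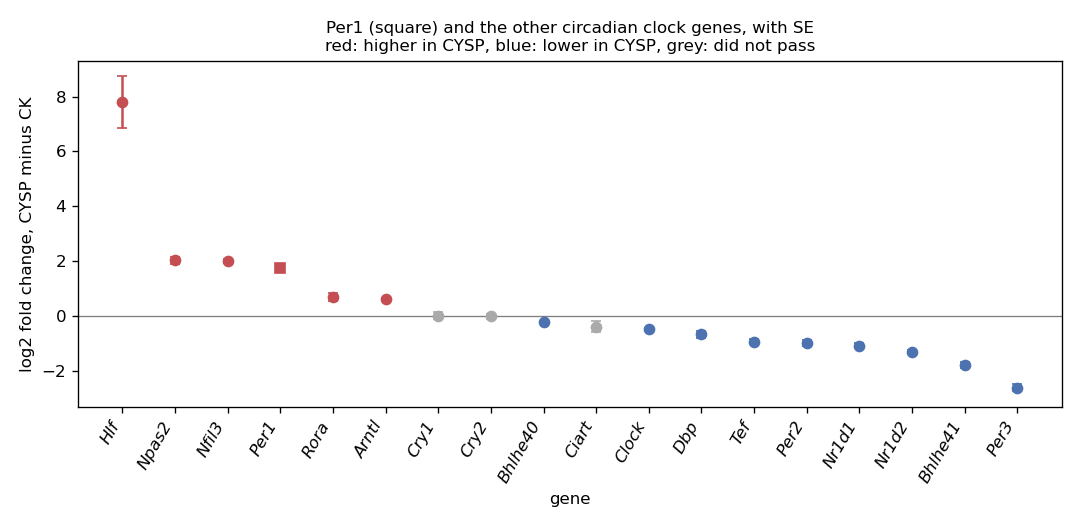
Log2 fold change, CYSP minus CK, with SE, of Per1 (square) and 17 other circadian clock genes (circles), in order of size, red where higher, blue where lower and grey where not passed in edgeR's test. Per1 at 1.75 lies with Npas2 and Nfil3, while Per2 at -0.98 and Per3 at -2.61 lie on the other side of 0, and the value of Hlf, with 0 counts in CK, depends on the model's prior count.

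Zbtb16 (ENSRNOG00000029980) encodes the zinc-finger repressor PLZF, a gene that glucocorticoids induce strongly in stromal and endometrial cells. It had 0, 0 and 4 counts in CK 1, 2 and 3 and 33, 40 and 31 counts in CYSP 1, 2 and 3. It was listed at 0 FPKM in CK 1 and CK 2 and at 0.107 FPKM in CK 3, and at 0.831, 1.13 and 0.883 FPKM in CYSP, so it was the least abundant of the 9 in both groups. The ratio of summed counts, corrected for library size, was 28.4 (95% counting interval 10.8 to 106, Clopper-Pearson), and the fitted log2 fold change was 4.70 (SE 0.574, adjusted p = 1.60e-11, edgeR). Zbtb16 passed the filter on low counts only through the CYSP samples, so it had to differ, and its p-value and its place in the counts of changed genes support nothing further. All 4 CK counts came from CK 3. Without that sample CK had 0 counts and the fitted value of 8.18 was set by the model's prior count, which makes it no estimate. It did not reach the filters of 50 counts in 3 samples or of a mean of 0.5 FPKM and could not be tested there.

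Sgk1 (ENSRNOG00000011815) encodes a serum- and glucocorticoid-inducible kinase that regulates ion channels. It stood at 18.8, 18.5 and 18.0 FPKM in CK and at 25.6, 25.1 and 25.3 FPKM in CYSP. Both groups were tight and did not overlap. Its CPM rose from 45.8 ± 1.09 to 68.0 ± 1.01 (SD, n = 3 per group), 1.49 times as high, with a log2 fold change of 0.57 (SE 0.0562, adjusted p = 3.78e-15, edgeR), and 24.9% of tested genes rose more. Of its paralogs, Sgk3 fell from 6.03 ± 0.912 to 3.29 ± 0.225 CPM and Sgk2 had 1 and 4 counts.

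Dusp1 (ENSRNOG00000069024), whose promoter is printed above, encodes a phosphatase that switches off MAP kinases and carries part of the anti-inflammatory action of glucocorticoids. It stood at 9.81, 10.2 and 11.2 FPKM in CK and at 14.7, 17.7 and 14.8 FPKM in CYSP. CYSP 2 was the highest, and the groups did not overlap. Its CPM rose from 9.61 ± 0.643 to 15.4 ± 1.62 (SD, n = 3 per group), 1.61 times as high, with a log2 fold change of 0.68 (SE 0.117, adjusted p = 2.91e-07, edgeR), and 21.6% of tested genes rose more. Among its paralogs Dusp4 rose from 1.33 ± 0.412 to 3.96 ± 0.610 CPM, Dusp2 fell from 1.27 ± 0.429 to 0.181 ± 0.172 CPM, and Dusp5, Dusp6, Dusp10 and Dusp16 did not pass. Dusp2 passed the filter on low counts only through CK, so its place among the lower paralogs supports nothing further. Dusp6, at a log2 fold change of 0.16, passed as higher without CK 1 (adjusted p = 0.0426) or CYSP 3 (adjusted p = 0.0223, edgeR). With the filter of 50 counts in 3 samples it passed as higher too (adjusted p = 0.0442, edgeR). The table's description of Dusp1 is borrowed from a hamster protein.

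Klf9 (ENSRNOG00000014215), a zinc-finger transcription factor that the receptor induces in many tissues, was the member that fell. It stood at 7.09, 7.56 and 6.98 FPKM in CK and at 5.30, 3.78 and 4.51 FPKM in CYSP. All CYSP samples were below all CK samples, with more spread among them. Its CPM fell from 19.1 ± 0.789 to 12.7 ± 2.20 (SD, n = 3 per group), a log2 fold change of -0.58 (SE 0.107, adjusted p = 1.45e-06, edgeR), and 22.1% of tested genes fell by more. The related factor Klf13 fell from 47.3 ± 2.67 to 29.6 ± 0.445 CPM. Sgk1, Dusp1 and Klf9 changed by less than 2-fold, and with an assumed biological coefficient of variation of 0.4 in place of the estimated one, which was 0.0393 over all genes, they no longer passed (adjusted p = 0.49, 0.39 and 0.48, edgeR likelihood ratio test).

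Tsc22d3 (ENSRNOG00000056135) encodes GILZ, the glucocorticoid-induced leucine zipper that mediates anti-inflammatory effects. It stood at 26.1, 22.3 and 22.8 FPKM in CK and at 21.9, 22.6 and 19.2 FPKM in CYSP. CK 1 was the highest and CYSP 3 the lowest, and the groups overlapped. Its CPM was 38.5 ± 3.50 and 37.2 ± 3.20 (SD, n = 3 per group), with a log2 fold change of -0.05 (SE 0.0712, adjusted p = 0.515, edgeR) that turned to 0.02 without CK 1 or without CYSP 3. The ratio of summed counts was 0.964, with a 95% counting interval of 0.903 to 1.03. The table's description of this gene is borrowed from mouse. Its paralog Tsc22d1 rose from 200 ± 2.15 to 427 ± 11.5 CPM, Tsc22d2 fell from 58.2 ± 2.84 to 24.9 ± 1.09 CPM, and Tsc22d4 rose by 0.22 on the log2 scale but did not pass with library-size scaling (adjusted p = 0.0636, edgeR). Tsc22d4 also did not pass in the limma-trend fits on FPKM (adjusted p = 0.103 to 0.141). Over the 13 tested of 14 listed paralogs of the 9 genes, 3 were higher, 6 lower and 4 not passed, with a median log2 fold change of -0.14, beside 38.2% higher and 37.8% lower among all tested genes.

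Set in order of FPKM, the 9 genes changed places. In CK, Tsc22d3 was highest at 23.7 ± 2.05 FPKM, followed by Sgk1 at 18.4 ± 0.452, then Hsd11b1 and Nr3c1, which overlapped, and Dusp1, Klf9, Fkbp5, Per1 and Zbtb16, each apart from its neighbour. In CYSP the order was Hsd11b1 and Nr3c1, which overlapped, Sgk1 at 25.3 ± 0.254 FPKM, Fkbp5 at 23.1 ± 1.54 and Tsc22d3 at 21.2 ± 1.78, which overlapped, and then Dusp1, Per1, Klf9 and Zbtb16. These levels are a description with no test.

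Further genes known to be induced by glucocorticoids were counted next. Of 44 listed, 42 were found and 34 tested, of which 25 were higher, 5 lower and 4 not passed, with a median log2 fold change of 1.25, beside 38.2% higher and 37.8% lower among all tested genes. By at least 2-fold, 21 rose and 4 fell, beside 15.2% and 12.7% of all tested genes. The higher genes include Orm1, Cd163 and Mt1, with 0, 2 and 3 counts over the CK samples. These passed the filter on low counts only through CYSP, so their place in the counts and the median supports nothing further. Lcn2, an iron-scavenging acute-phase protein, rose from 3.22 ± 1.04 to 1513 ± 5.41 CPM, and Orm1, another acute-phase protein, had 0 counts in CK and 2824 in CYSP, at least 1029-fold higher against a floor of 3 counts over the group (the list's median is the same with Orm1 at that bound). Fbxo32, a ubiquitin ligase of muscle wasting, fell from 33.1 ± 3.10 to 2.02 ± 0.456 CPM, and Txnip, an inhibitor of thioredoxin, fell from 106 ± 2.26 to 14.7 ± 0.720 CPM. Chosen after their values were seen, the metallothionein Mt2A rose from 4.78 ± 0.673 to 1788 ± 83.5 CPM, Ddit4 from 39.1 ± 4.02 to 223 ± 6.88 CPM, and glutamine synthetase Glul from 82.1 ± 5.89 to 402 ± 9.72 CPM. Cd163, a macrophage scavenger receptor, had 2 counts in CK and 761 in CYSP, a ratio of 416 (95% counting interval 115 to 3442), while the macrophage and leukocyte markers were lower or not passed. Anxa1, the anti-inflammatory annexin, fell from 502 ± 16.8 to 249 ± 8.01 CPM, and Tat and Pck1, liver targets of the receptor, had 1 and 3 counts in CK and none in CYSP.

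Genes known to be repressed by glucocorticoids moved in both directions. Of 22 listed and found, 16 were tested, and 10 were higher, 5 lower and 1 not passed, with a median log2 fold change of 3.88, beside 38.2% higher and 37.8% lower among all tested genes. The members that rose encode cytokines, chemokines and enzymes of inflammation and matrix breakdown, namely Cxcl2, Mmp13, Il6, Nos2, Ccl20, Mmp3, Mmp9, Cxcl1, Ptgs2 and Ccl2. Among them Cxcl2 went from 0.762 ± 0.177 to 411 ± 10.04 CPM and Mmp13, a collagenase, from 97.3 ± 8.46 to 17897 ± 83.5 CPM. Col1a1, the main collagen of bone matrix, fell from 40665 ± 960 CPM in CK to 9668 ± 436 CPM in CYSP. Il1b, an inflammatory cytokine, had 88.7 ± 7.32 CPM in CK and 24.9 ± 0.772 CPM in CYSP, and Tnf, Icam1 and Vcam1 were the other genes that fell. Vcam1 did not pass without CK 2 (adjusted p = 0.0568), and Cxcl10, at 4.78 ± 3.20 and 1.94 ± 0.421 CPM, passed as lower only without CK 3 among the samples left out (adjusted p = 1.51e-10, edgeR). With an assumed coefficient of variation of 0.2 or 0.4 in place of the estimated one, Cxcl10 passed as lower too (adjusted p = 4.31e-05 and 0.0492, edgeR likelihood ratio test).

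Genes that answer cyclic AMP through CREB, a signal that also reaches Per1, Dusp1 and Sgk1, were counted beside them. All 13 listed were tested, 9 were higher, 3 lower and 1 not passed, with a median log2 fold change of 0.91, beside 38.2% higher and 37.8% lower among all tested genes. Ppargc1a, a coactivator of mitochondrial genes, rose from 0.0996 ± 0.0346 to 6.05 ± 0.993 CPM, and Rgs2, a brake on G-protein signalling, from 4.23 ± 1.00 to 146 ± 6.79 CPM. Ppargc1a, and Areg with 3 counts over the CK samples, passed the filter on low counts only through CYSP. Their place among the higher genes therefore supports nothing further. Of the immediate early genes, Fosb fell from 4.18 ± 0.194 to 0.158 ± 0.141 CPM, and Fos had 6.60 ± 0.283 CPM in CK and 3.17 ± 0.324 CPM in CYSP. Fosb passed the filter only through CK, so its place among the lower genes supports nothing further. Named after their values were seen, Crem, Pde4b and Sik1 rose by 1.52, 2.70 and 2.55 on the log2 scale, and Nr4a3 did not pass.

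**Figure D4:**
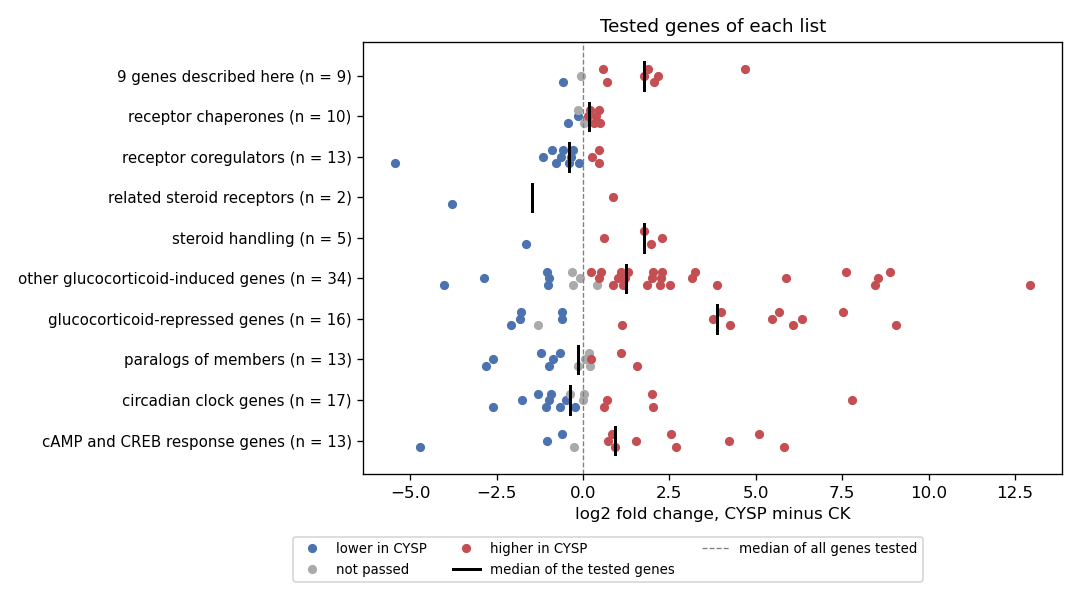
Log2 fold change, CYSP minus CK, of every tested gene in the 9 genes described here and in 9 other lists (cell type markers are not drawn), with 1 point per gene, the list's median as a black bar and the median of all tested genes as a dashed line. The medians drawn run from -1.47 for the 2 tested related steroid receptors to 3.88 for the 16 tested glucocorticoid-repressed genes. Of those 2 receptors, Pgr passed the filter on low counts only through CK. The single point near 13 is Orm1, whose fitted value depends on the prior count because CK had 0 counts.

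The genes whose pattern lay nearest to that of Nr3c1 over the 6 samples, by Euclidean distance of centred log2 CPM among 11753 genes, were Ptges2, a prostaglandin E synthase (distance 0.052), Enpp3, Anxa2, Fam126a and Dnm1, with log2 fold changes between 2.13 and 2.21. With 2 groups of 3 samples this likeness is mainly likeness of the fold change, and 1368 genes had a Pearson correlation of at least 0.99 with Nr3c1. Nearest to Zbtb16, which had the largest change of the 9 genes, were Dpysl5 (distance 0.53), Rgs9, Rbp4, Slc2a4 and Klhl32, and 56 genes had a correlation of at least 0.99. In CK these 5 genes averaged 0.0604, 0.758, 0.199, 0.140 and 0.323 CPM, low or near the limit of detection. Their likeness to Zbtb16 is therefore mainly a near absence from CK. These distances are a description of 6 samples that share 1 contrast.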

How the data were processed

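Per the labels' protocols, RNA of 3 CK and 3 CYSP samples was enriched for polyadenylated RNA. The submitters' processing notes name RSEM, StringTie 1.3.1, HISAT2 and fastp 0.18.0 without saying what each did. Genome build, counting tool and strand setting: not given in the sources used here. The deposited table holds counts, FPKM, the authors' log2 fold change, p-value and adjusted p-value, per the file headers. The headers do not say whether the counts are raw, and they were treated as raw counts.

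Counts were tested with edgeR 4.0.16 in R 4.3.3 (filterByExpr, TMM scaling, robust quasi-likelihood fit, Benjamini-Hochberg over 12623 genes, threshold 0.05). Of the rest, 6878 genes had no count and 3590 fell under the filter. SEs come from the fold change and F statistic. CPM are TMM-scaled. The precision of low genes is set by total counts of 15060933 to 17244700 per sample. Intervals and floors cover counting error only.

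The 9 genes and all lists were chosen with earlier results of these data known. Named were all 9 genes, the 2 largest changes per direction in each list (mean of at least 1 CPM), every tested chaperone, receptor and steroid-handling gene, and the 5 nearest patterns of Nr3c1 and Zbtb16. Others are said to be chosen after their values were seen, or are listed as the remaining changed genes of a list or paralogs of a member. Some listed genes are counted but not reported here by name. Alternatives were other scalings, DESeq2 1.42.0, limma 3.58.1 (voom, and trend on FPKM), other filters, assumed variation, a 2-fold threshold, samples left out and a replicate block.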

Additional observations from a re-analysis of the deposited data

How the results depend on the processing

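Across the alternatives run, the 7 higher genes and Klf9 kept their direction. Leaving out each sample in turn gave 4706 to 4751 genes higher and 4621 to 4687 lower, against 4828 and 4772, and 7 and 1 of the 9 genes throughout. The log2 fold change of Tsc22d3, which did not pass, ranged from -0.10 to 0.0231 with 1 sample left out, and it was above 0 without CK 1 (0.0231) and without CYSP 3 (0.0189) (adjusted p = 0.801 and 0.836, edgeR). With an assumed coefficient of variation of 0.2, 3102 genes were higher and 2801 lower. With 0.4, 1496 and 1209 were, and of the 9 genes 5 were higher and 0 lower. Tested against a 2-fold change (glmTreat), 1504 and 1217 genes passed, and again 5 and 0 of the 9. Sgk1, Dusp1 and Klf9 lost their calls in these last 2 fits, where the assumed variation or the fold threshold is larger by construction. Library-size scaling moved the median of all genes by -0.08 and gave 4345 higher and 5290 lower. The shared replicate numbers did not pair the samples (correlation of deviations -0.000633, 0.0185 and -0.00885 for same-numbered samples), and with the replicate block 4773 genes were higher and 4712 lower, and 7 and 1 of the 9. Summing counts over identifiers gave no value, because each of the 9 symbols stands on a single identifier. Zbtb16, with 4 counts in CK, is limited by depth.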

Other observations

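In the gene ontology annotation deposited with the table, 6 terms on corticosteroid response were counted, chosen after the file was seen. Of 86 genes annotated to the response to glucocorticoid, 55 were tested, and 33 were higher in CYSP, 15 lower and 7 not passed in edgeR's quasi-likelihood test (median log2 fold change 0.59), beside 38.2% higher and 37.8% lower among all tested genes. Its higher genes include Il6, Cxcl2, Ptgs2 and Ccl2, and its lower genes Tnf, all counted above as glucocorticoid-repressed. The higher genes also include Gpr83, Areg, Bche, Adipoq and Aldh3a1, with 1, 3, 4, 10 and 16 counts in CK. These passed the filter on low counts only through CYSP. So did Ace, RGD1565462, Kcnma1, Sstr4 and Sstr3 of the terms below, with 1, 5, 3, 17 and 10 counts in CK. Among the lower genes, Igfbp2 here and Edn1 in the terms below had 8 counts each in CYSP and passed only through CK. The place of such genes in these counts and medians supports nothing further, and other genes near the filter may share this limit. A symbol on several identifiers was counted once, by the identifier with most counts. For the cellular response to dexamethasone, 41 of 51 genes were tested, 18 higher, 16 lower and 7 not passed, with a median of 0.03, shares near those of all tested genes. For the response to dexamethasone, 13 of 19 genes were tested, 8 higher and 4 lower, with a median of 1.05. For the cellular response to glucocorticoid, 18 of 26 were tested, 10 higher and 5 lower, with a median of 0.31, and for the response to corticosteroid 6 of 9 were tested, 2 higher and 2 lower, with a median of -0.07. All 5 genes of the glucocorticoid receptor signaling pathway were tested. Nr3c1 was higher, and Ywhah, a scaffold protein, Nedd4, a ubiquitin ligase, Ptges3 and the chromatin remodeller Arid1a were lower, with log2 fold changes of 2.19, -1.40, -0.44, -0.44 and -0.54. Of the 9 genes described above, Nr3c1 carried 3 of the 6 terms and the other 8 carried none.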
